A study of Mus musculus with 8 samples.

Results

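The variable segments of the T cell receptor alpha chain were described in cultured mouse immune cells. They comprise every Ensembl identifier of the count table whose GENCODE M21 symbol starts with Trav, 128 of 52636. Of these, 108 are annotated as functional variable genes and 20 as pseudogenes, and they fall into 23 families by the number before the hyphen. Spleen and lymph node cells came from mice 35 to 55 days old, before signs of disease, and messenger RNA was sequenced after 4 days of culture. The 4 groups were the 2 sexes of TCR1640 and of SJL/J mice, the latter given as wild type in the series' design text, and each group has 2 deposited count columns. Every group received the same stimulation toward a TH1/TH17 state, namely anti-CD3 at 1 µg/ml with IL-23 at 20 ng/ml, TGF-β at 4 ng/ml, IL-6 at 20 ng/ml and IL-12 at 3 ng/ml. TCR1640 mice carry a rearranged T cell receptor transgene that recognises a protein of myelin, and their background strain is SJL/J. The design asks how the sexes differ within each strain.

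A T cell makes its alpha chain by joining 1 variable segment to 1 joining segment, and the joined exon is spliced to the constant region Trac. The variable segment encodes most of the chain's domain that touches antigen, including its first and second complementarity-determining loops, and it ends inside the third. In the mouse the variable segments lie in a long array upstream of Trac, parts of which were duplicated, and segments of the duplicated blocks carry d or n in their names. Segments named -dv can also be joined into delta chains. Expression of a single rearranged receptor gives RNA of a single variable segment, and a polyclonal population gives many segments at low levels. The alpha chain of the TCR1640 receptor is known to use a member of the group now named Trav12.

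Segment use went against these labels. Trav12 took, in libraries labelled TCR1640, 5.98% of all Trav counts in females and 5.96% in males. The SJL/J labels held 53.2% in females and 54.7% in males. In what follows a strain name is only the label of a library, and no direction is read as one between the strains themselves.

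The 128 segments all lie on the plus strand of chromosome 14, from chr14:52427928 to chr14:53977678 on GRCm38. By name, 39 are d copies, 34 are n copies and 55 carry neither letter, and 10 segments are named -dv. All 9 counted Trav12 segments are annotated as functional genes, and the tenth, Trav12-4, is a pseudogene. Trav12-3 (ENSMUSG00000095958, chr14:53621657-53622245), Trav12-2 (ENSMUSG00000096656, chr14:53616315-53616914) and Trav12-1 (ENSMUSG00000096825, chr14:53538191-53538738) lie within 682 kb of Trac. The copy Trav12d-3 (ENSMUSG00000094607) lies at chr14:52929789-52930282, at a distance of 1290 kb. The variable exons of these 4 segments are given 5′ to 3′ from the GENCODE M21 transcripts, because they carry the difference between the libraries and set how far reads of single members can be told apart. Capitals mark bases that differ from Trav12-3.
Trav12-3: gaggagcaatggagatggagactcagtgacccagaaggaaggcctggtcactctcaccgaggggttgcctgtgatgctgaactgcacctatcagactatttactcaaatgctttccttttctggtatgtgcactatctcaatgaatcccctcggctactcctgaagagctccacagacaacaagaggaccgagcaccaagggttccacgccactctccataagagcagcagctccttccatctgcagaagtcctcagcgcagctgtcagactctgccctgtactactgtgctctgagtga
Trav12d-3: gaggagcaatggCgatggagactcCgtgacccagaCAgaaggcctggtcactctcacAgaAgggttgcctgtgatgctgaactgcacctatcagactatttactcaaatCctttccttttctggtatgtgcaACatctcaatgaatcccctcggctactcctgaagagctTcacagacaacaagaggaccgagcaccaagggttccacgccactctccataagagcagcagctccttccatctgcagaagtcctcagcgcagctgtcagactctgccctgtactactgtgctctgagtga
Trav12-2: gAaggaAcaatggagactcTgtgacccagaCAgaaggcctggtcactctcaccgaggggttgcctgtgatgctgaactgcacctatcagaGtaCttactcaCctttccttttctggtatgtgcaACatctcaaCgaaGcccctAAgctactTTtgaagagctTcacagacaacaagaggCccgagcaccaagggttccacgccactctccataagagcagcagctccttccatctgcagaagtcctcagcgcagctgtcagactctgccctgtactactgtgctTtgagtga
Trav12-1: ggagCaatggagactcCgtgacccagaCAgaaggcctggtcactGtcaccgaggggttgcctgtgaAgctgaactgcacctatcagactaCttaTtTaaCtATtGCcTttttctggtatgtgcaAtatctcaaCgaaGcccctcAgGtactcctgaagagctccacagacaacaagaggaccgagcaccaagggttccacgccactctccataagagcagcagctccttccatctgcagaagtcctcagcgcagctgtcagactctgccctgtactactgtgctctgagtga
The stretches lie at chr14:53621946-53622245 for Trav12-3, chr14:52929983-52930282 for Trav12d-3, chr14:53616623-53616914 for Trav12-2 and chr14:53538447-53538738 for Trav12-1. The exon of Trav12d-3 is 301 bases long like that of Trav12-3, the first base of both being left out above, and it differs by 10 substitutions (96.7% identity). Trav12-2 has 19 substitutions and lacks 9 bases of Trav12-3 (90.7% identity), and Trav12-1 has 20 substitutions and lacks 9 bases (90.4%). The exon of Trav12n-3 is identical to that of Trav12d-3, and Trav12n-1 and Trav12n-2 are identical to Trav12d-1 and Trav12d-2.

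The part of the exon that enters the third loop is short. The last 30 bases are shown for the most counted segment of 7 families, since this end is where the joining segment is attached. Capitals run from the codon of the conserved cysteine to the end of the exon.
Trav12-3: ctctgccctgtactacTGTGCTCTGAGTGA
Trav3-3: actcagccgcgtacttcTGCGCAGTCAGTG
Trav9-1: actcggctgtgtacttcTGTGCTGTGAGCG
Trav7-3: actctgctctctacctcTGTGCAGTGAGCA
Trav6n-6: ctcggctgtgtactacTGCGCTCTGAGTGA
Trav4-4-dv10: actcaggcacttacttcTGTGCTGCTGAGG
Trav13n-4: actcaggcacttatctcTGTGCTATGGAAC
These ends lie on the plus strand of GRCm38 at chr14:53622216-53622245, chr14:53666477-53666506, chr14:53488538-53488567, chr14:53443810-53443839, chr14:53133108-53133137, chr14:53684148-53684177 and chr14:53364077-53364106, in the order shown. The letters TGTGC stood in the last 30 bases of 86 of the 108 functional exons, and TGCGC alone in 10, read on the coding strand. Trav12-3 and Trav6n-6 carry 14 bases from the cysteine codon onward, and the other 5 carry 13.

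Whole-library totals ran from 3765291 to 5116467 counts per column. Over all genes, the pair of columns in a group stood close to sampling noise (chi-square per degree of freedom 1.05 to 1.08, against 3.12 to 17.1 between groups). Over Trav segments the value was 0.556 to 1.20 within groups and 1.11 to 16.9 between them. Each pair of columns was summed into 1 sample, so n = 1 per group and no comparison has a replicate check. All intervals cover counting error only, and columns given singly below are not counted as replicates of a condition. The labels do not say whether paired columns stand for different mice. The kit is stranded but the strand setting of the counting is not given in the sources used here. Tsix had 7200 and 7700 counts in the female groups against 1347 and 1521 for Xist on the opposite strand, and whether segment counts came from off-strand reads was not tested. Features annotated on the strand opposite to Trav exons overlap only Trav13d-3 and Trav13n-3, which had 12 and 8 counts over all columns. The overlapping features had more. Gm30214, opposite Trav13d-3, had 85 and 129 counts in females and males labelled TCR1640 and 51 and 49 in those labelled SJL/J. Gm43650, opposite Trav13n-3, had 126 and 176, and 99 and 94.

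Trav counts in the 2 columns were 381 and 388 for females labelled TCR1640, 562 and 529 for males labelled TCR1640, 489 and 531 for females labelled SJL/J, and 496 and 525 for males labelled SJL/J. This gave 769, 1091, 1020 and 1021 counts per group in that order, which is kept below where 4 values follow each other without names. In TMM-scaled CPM, the groups stood at 98.1, 110, 122 and 130. The sum over the array was therefore slightly lower in the libraries labelled TCR1640, with a log2 ratio over SJL/J of -0.31 in females (95% interval -0.45 to -0.18) and -0.24 in males (-0.36 to -0.11). Of the 128 segments 122 had a count in some column. Trav4-1, Trav15d-3, Trav5n-3, Trav7-6, Trav12-4 and Trav18 had 0 in all 8, which allows each a share of up to 0.275% to 0.390% of a group's Trav counts.

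Trav12 set the libraries apart. It had 25 and 21 counts in the columns of females labelled TCR1640 and 33 and 32 in those of males, against 257 and 286 in females labelled SJL/J and 279 and 279 in males. No column labelled TCR1640 came near a column labelled SJL/J. The shares of Trav counts were 5.98% (exact 95% interval 4.41 to 7.90) and 5.96% (4.63 to 7.53) in females and males labelled TCR1640. In those labelled SJL/J they were 53.2% (50.1 to 56.3) and 54.7% (51.5 to 57.7). Per exon length, the Trav12 share was 5.44%, 5.34%, 51.6% and 52.6%. On TMM-scaled totals the family was 11.1-fold lower in the female library labelled TCR1640 (log2 ratio -3.47, -3.93 to -3.03) and 10.8-fold lower in the male one (-3.43, -3.83 to -3.06). Within a label the sexes did not differ beyond counting error, with male over female log2 ratios of 0.16 (-0.41 to 0.74) for TCR1640 and 0.13 (-0.05 to 0.30) for SJL/J.

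**Figure D1:**
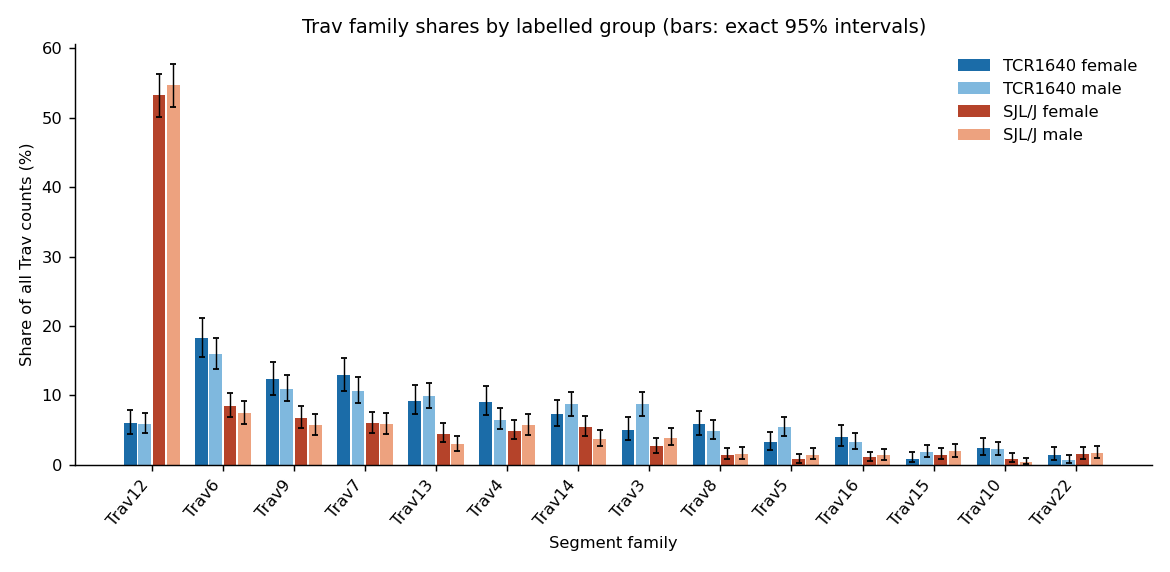
Share of all Trav counts (%) for the 14 families with the highest mean share, by labelled group, with exact 95% intervals for counting error (2 columns summed, n = 1 per group). Trav12 stands at 53.2% and 54.7% in the SJL/J labels and near 6% in the TCR1640 labels, and most other families are at lower shares in the SJL/J labels.

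Per exon length, the families that led in the libraries labelled TCR1640 were Trav6, Trav7 and Trav9. Trav6 took 19.2% of length-scaled counts in females and 17.1% in males, Trav7 12.5% and 10.3%, and Trav9 11.9% and 10.5%. In the libraries labelled SJL/J the same families stood at 9.33% and 8.11%, 5.88% and 5.92%, and 6.72% and 5.69%. Trav13, Trav4, Trav14 and Trav3 likewise took smaller shares there. Of counts, Trav13 had 9.23% and 9.90% in TCR1640 labels against 4.51% and 2.94%, and Trav4 9.10% and 6.51% against 4.90% and 5.68%. Trav14 had 7.28% and 8.71% against 5.49% and 3.72%, and Trav3 5.07% and 8.71% against 2.65% and 3.92%. The intervals of Trav4 overlap between labels in males, as do those of Trav14 and Trav3 in females.

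Trav11 and Trav1 are the segments of semi-invariant receptors, Trav11 of invariant natural killer T cells and Trav1 of mucosal-associated invariant T cells. The 3 Trav11 segments together had 1, 1, 3 and 1 counts, and Trav1 had 2 and 2 counts in the TCR1640 labels and 0 in both SJL/J groups, where 0 of 1020 allows up to 0.294%. Their usual partners Traj18 and Traj33 had 1, 8, 1 and 0 counts and 2, 1, 1 and 0 counts. For Trav11 and Trav1 no difference between groups was detectable at this depth. Traj18 stood at 8 against 0 counts between labels in males, with an interval of the log2 ratio that starts at 0.44 and so excludes equality, on fewer counts than the minimum of 20 used below. Zbtb16, a transcription factor of both cell types, had 3, 4, 23 and 29 counts. Its log2 ratios between labels were -2.84 in females (-5.22 to -1.12) and -3.19 in males (-5.16 to -1.68). Which cells these counts came from was not tested.

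Counts of all 9 members made up the excess, though those given to d and n copies depend on how shared reads were assigned. Trav12-3 had 2 and 3 counts in females labelled TCR1640 and 3 and 7 in males, against 56 and 56 in females labelled SJL/J and 71 and 93 in males. Trav12-2 had 4 and 1, 0 and 3, 43 and 54, and 45 and 40 counts. Trav12d-3 had 1 and 1, 1 and 3, 44 and 51, and 38 and 44. For these 3 segments every SJL/J column lay above every TCR1640 column, by a wide margin. Trav12n-3 showed the same order, with 3 and 3, 1 and 2, 37 and 49, and 38 and 29 counts. The other 5 members had at most 34 counts in any SJL/J column. Trav12d-1 (ENSMUSG00000095689) had 2 and 1, 6 and 3, 19 and 21, and 34 and 20 counts, and Trav12n-1 had 2 and 0, 3 and 3, 15 and 18, and 18 and 21. Trav12-1 had 4 and 4, 8 and 3, 17 and 13, and 14 and 8, so that 1 column of males labelled TCR1640 reached the lowest SJL/J column. Trav12d-2 and Trav12n-2 had 5 and 3, 2 and 2, 15 and 8, and 9 and 10 counts, and 2 and 5, 9 and 6, 11 and 16, and 12 and 14 counts. All 9 were still lower in both comparisons of the labels. In females the log2 ratios ran from -5.48 for Trav12d-3 (2 against 95 counts, interval -8.54 to -3.58) to -1.43 for Trav12d-2 (-2.80 to -0.22). In males they ran from -5.16 for Trav12-2 (3 against 85 counts, -7.46 to -3.56) to -1.13 for Trav12n-2 (-2.15 to -0.16).

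**Figure D2:**
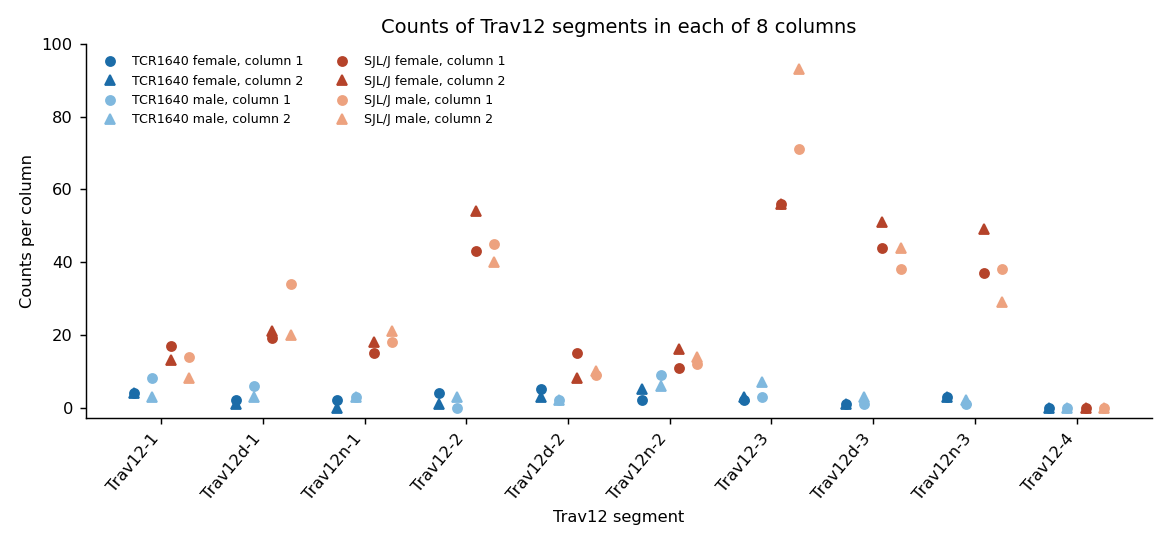
Counts of the 10 Trav12 segments in each of the 8 columns, on a linear axis (circles for column 1, triangles for column 2 of a group). Trav12-3 reaches 56 to 93 counts in the SJL/J labels and 2 to 7 in the TCR1640 labels, and Trav12-4 is at 0 in all columns.

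The makeup of the family differed too. With d and n copies merged, the Trav12-3 subgroup held 28.3% of the Trav12 counts of females (16.0 to 43.5) and 26.2% of those of males (16.0 to 38.5) under the TCR1640 label. Under the SJL/J label it held 54.0% (49.7 to 58.2) and 56.1% (51.9 to 60.3), intervals that do not overlap the former. The Trav12-1 subgroup held 28.3% and 40.0% against 19.0% and 20.6%, with intervals that overlap between labels in females (16.0 to 43.5 and 15.8 to 22.5) and lie apart in males (28.0 to 52.9 and 17.3 to 24.2). The Trav12-2 subgroup held 43.5% and 33.8% against 27.1% and 23.3%, with intervals that overlap in females (28.9 to 58.9 and 23.4 to 31.0) and in males (22.6 to 46.6 and 19.8 to 27.0). As a share of all Trav counts, the Trav12-3 subgroup stood at 1.69% and 1.56% in TCR1640 labels and at 28.7% and 30.7% in SJL/J labels. The other subgroups also stood higher there, Trav12-2 at 14.4% and 12.7% against 2.60% and 2.02%, and Trav12-1 at 10.1% and 11.3% against 1.69% and 2.38%. A read that spans only shared bases of the exons printed above cannot be placed on 1 member, so the split among members depends on how such reads were counted, which is not given in the sources used here.

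How far members can be told apart was measured on the annotated spliced sequences. Among the 128 segments, 36 have a variable exon identical to that of another, and 39 have no 50-base stretch that is unique among Trav transcripts. Those 39 held 1110 of the 3901 Trav counts. In each of the 18 identical pairs both members had counts, 635 over the first members and 634 over the second. Of Trav12-3's 50-base stretches 68.2% are unique, of Trav12-2's 70.8% and of Trav12-1's 58.5%, against 0% for Trav12d-3 and 0.329% for Trav12n-3. Levels of single d and n copies are therefore uncertain, and family sums are not touched by an exchange within a family.

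Positions along the array rest on the same assignment of reads, so an excess at the d and n copies is not shown by these counts. The Trav12-3 subgroup lies 598 kb (Trav12-3), 979 kb (Trav12n-3) and 1290 kb (Trav12d-3) upstream of Trac. The count-weighted mean distance from Trac over all Trav segments was 982 and 967 kb in females and males labelled TCR1640 and 945 and 904 kb in those labelled SJL/J. Without Trav12 it was 984, 968, 973 and 910 kb. Segments with neither d nor n in the name held 45.0%, 46.9%, 43.6% and 50.1% of Trav counts, d copies 30.8%, 29.1%, 29.5% and 26.9%, and n copies 24.2%, 24.0%, 26.9% and 22.9%. Among these shares, the only intervals that lay apart were those of segments with neither letter in females (40.6 to 46.7) and males (47.0 to 53.3) labelled SJL/J.

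**Figure D3:**
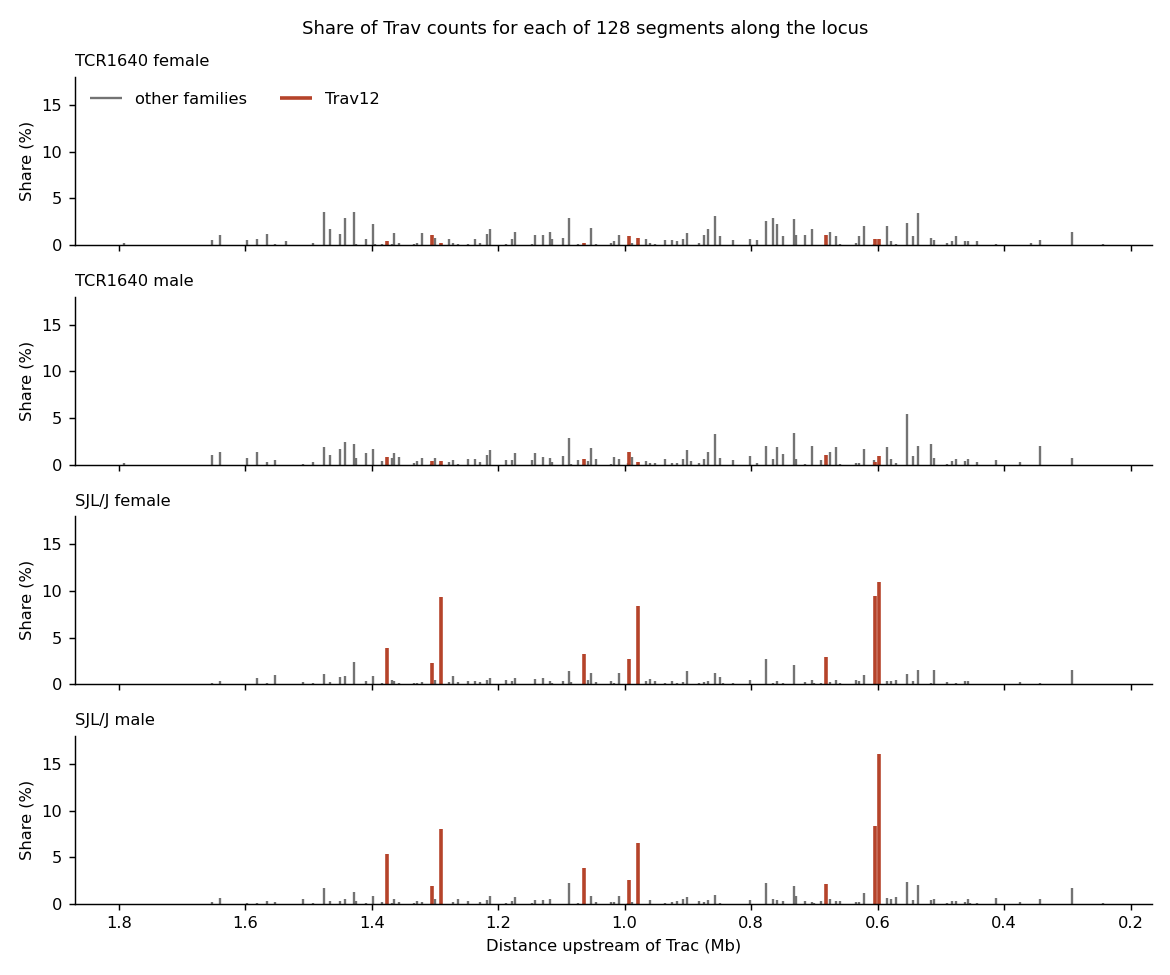
Share of Trav counts (%) for each of the 128 segments by distance upstream of Trac (Mb), 1 panel per labelled group, with Trav12 in red. Counts are drawn where they were assigned, which is uncertain for d and n copies. In the SJL/J labels the highest Trav12 bar is Trav12-3 with 11.0% in females and 16.1% in males, and in the TCR1640 labels no segment exceeds 5.41%.

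Between labels, 16 of 29 Trav segments with at least 20 counts differed in females by the rule of size used here, which asks for a ratio of at least 2-fold and a counting interval that excludes equality. That is 55.2%, beside 9.55% of all features with at least 20 counts, and 14.2% of those with 20 to 200 counts. Of the 16, 10 were lower in the library labelled TCR1640 and 6 higher, beside 5.31% and 4.24% of all features. In males 19 of 34 differed (55.9%), beside 12% of all features and 17.8% of those with 20 to 200 counts. Of the 19, 10 were lower and 9 higher, beside 6.29% and 5.72% of all features. The Trav12 members are among these segments and reached 20 counts mostly through the SJL/J labels. Outside Trav12, 7 of 20 segments differed in females and 10 of 25 in males, beside the same shares of all features. Scaled to the summed Trav counts in place of all genes, females gave 8 lower and 9 higher and males 7 lower and 10 higher, so the balance of directions turns with the scaling. The median log2 ratio over the segments was 0.09 in females and 0.61 in males, against 0.01 and 0.01 over all features. Fewer higher than lower calls passed under the 3 alternatives that follow, unlike over segments with mostly unique 50-base stretches (4 higher and 3 lower in females, 6 and 4 in males). With the first or the second column of each group left out, females had 6 lower calls either way and 1 or 0 higher, and males had 7 or 6 lower and 1 higher either way. At a minimum of 50 counts there were 4 lower and 0 higher in females and 5 lower and 0 higher in males. DESeq2 on the 8 columns called 6 lower and 1 higher of 31 tested segments in females. In males it called 7 lower and 0 higher of 53. Over all genes it called 1605 lower and 1571 higher of 17440 in females, and 2038 lower and 2038 higher of 19291 in males.

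Both comparisons shared 13 segments, that is 13 of the 16 in females and 13 of the 19 in males, and all 13 had the same direction. The share of all features called in both was not computed, so this overlap is only a description. The 13 were the 9 counted Trav12 segments, all lower, and Trav13-2, Trav13n-4, Trav7-4 and Trav8d-1, all higher in the TCR1640 labels. Trav13n-4 had 14 and 10 counts in females and 19 and 17 in males labelled TCR1640, against 4 and 8, and 4 and 6 in those labelled SJL/J. The log2 ratios were 1.09 (0.04 to 2.23) and 1.52 (0.47 to 2.69). Trav8d-1 had 13 and 9, and 14 and 12 counts against 1 and 8, and 0 and 5. Its ratios were 1.38 (0.21 to 2.69) and 2.05 (0.64 to 3.78). Trav7-4 had 7 and 10, and 14 and 6 counts against 1 and 3, and 2 and 2, with ratios of 2.18 and 1.99. Trav13-2 had 8 and 8, and 12 and 9 against 4 and 0, and 1 and 5, with ratios of 2.09 and 1.47.

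Of the 8 most counted segments outside Trav12, Trav13n-4 passed in both sexes and Trav7d-3 in females. Trav3-3, the most counted, had 18, 59, 11 and 24 counts, with log2 ratios between labels of 0.81 in females (-0.36 to 2.03) and 0.96 in males (0.26 to 1.71). The male interval excludes equality at a ratio under 2-fold. For the other 5 the intervals included equality in both sexes. Trav9-1 had 21, 37, 21 and 20 counts, Trav9d-1 27, 24, 24 and 13, and Trav7-3 20, 22, 27 and 23. Trav6n-6 had 22, 31, 14 and 23, and Trav4-4-dv10 26, 22, 16 and 21. Their log2 ratios ran from -0.34 (Trav7-3) to 0.80 (Trav4-4-dv10) in females and from -0.40 (Trav7-3) to 0.55 (Trav9-1) in males.

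Other segments passed in 1 sex only. In females Trav6-4 had the highest ratio, with 11 and 11 counts in the columns labelled TCR1640 against 0 and 1 (log2 4.55, 1.93 to 9.92). Males held too few Trav6-4 counts for the rule, with 1 and 6 against 0 and 5. Trav7d-3 stood at 1.39 in females (10 and 17 against 4 and 7 counts) and at -0.03 in males (-1.02 to 0.99). In males Trav6-6 had 14 and 8 counts against 0 and 2 (3.13, 1.10 to 6.26), Trav14-1 12 and 8 against 1 and 2 (2.40), Trav5-4 13 and 11 against 2 and 2 (2.25), and Trav7d-4 12 and 6 against 0 and 3 (2.25). Trav6-6 has an exon identical to that of Trav6d-6, which stood at 0.84 in males (-0.44 to 2.25), so this value in particular depends on how shared reads were split. Outside Trav12, 1 segment in each sex was lower in the TCR1640 label. It was Trav6-7-dv9 in females, with 2 and 2 against 7 and 9 counts, and the pseudogene Trav22 in males, with 5 and 3 against 7 and 10. Whether any of these ratios differed between the sexes was not tested.

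**Figure D4:**
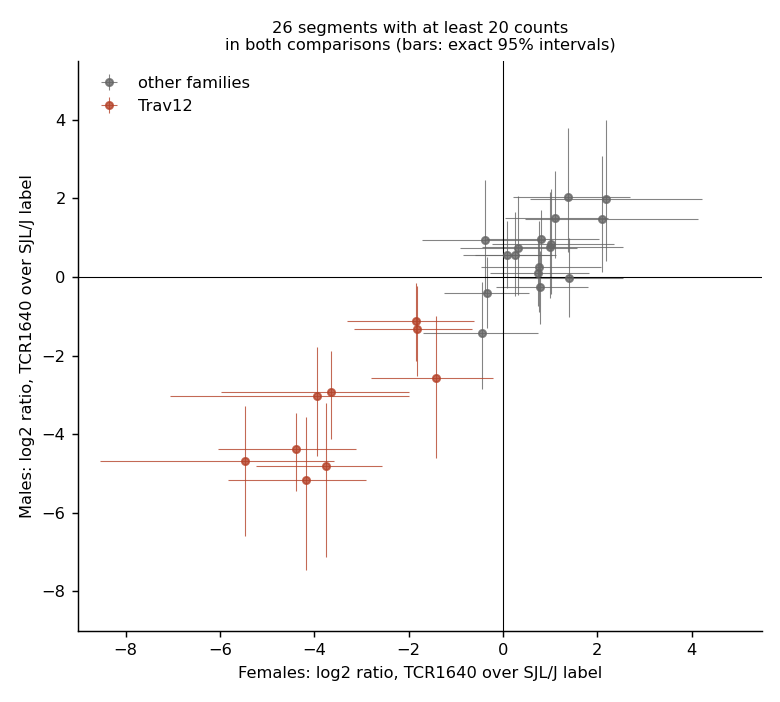
Log2 ratio of TCR1640 over SJL/J labels in females (horizontal) and males (vertical) for the 26 segments with at least 20 counts in both comparisons, with exact 95% intervals for counting error. The 9 Trav12 segments lie below 0 in both, and of the 17 others 12 lie above 0 in both and 2 below 0 in both.

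Once Trav12 was set aside, the other 22 families had 723, 1026, 477 and 463 counts. In TMM-scaled CPM they stood at 92.3 and 104 in the TCR1640 labels and at 57.0 and 58.9 in the SJL/J labels. The log2 ratio of their sum was 0.69 in females (0.53 to 0.86) and 0.82 in males (0.66 to 0.98), under 2-fold in both. Of the segments outside Trav12 with at least 20 counts, 15 of 20 in females and 21 of 25 in males had a ratio above 0. The share of all features above 0 was not computed. Some of these segments reached 20 counts mostly through the TCR1640 label, such as Trav6-4 in females with 22 against 1 counts. The median over the segments was 0.78 and 0.95, against 0.01 and 0.01 over all features. Per count of Trac, the segments outside Trav12 had 0.804 and 0.790 counts in the TCR1640 labels and 0.412 and 0.341 in the SJL/J labels, while all Trav segments together had 0.855, 0.840, 0.882 and 0.751. In bulk RNA, fewer cells using a segment and less of its RNA per cell cannot be told apart.

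The relative use of the other families differed much less. Across the 22 families, shares within this remainder had Pearson's r between 0.924 and 0.965 and Spearman's rho between 0.889 and 0.947 for the 6 pairs of groups, a description over families that differ widely in number of segments and are counted in the same libraries. Trav6 made up 19.4%, 17.0%, 18.2% and 16.4% of the remainder, Trav9 13.1%, 11.7%, 14.5% and 12.5%, and Trav7 13.7%, 11.3%, 12.8% and 13.0%. For these families all 4 intervals overlap. Of the 22 families 6 had a pair of groups whose intervals lay apart, in 7 pairs. Trav22, a single pseudogene, held 0.780% of the remainder in males labelled TCR1640 (0.337 to 1.53). In females and males labelled SJL/J it held 3.35% (1.93 to 5.39) and 3.67% (2.15 to 5.81). Females labelled TCR1640 stood at 1.52% (0.762 to 2.71), an interval that overlaps both, with 1 and 10 counts in the 2 columns. Trav4 held 6.92% in males labelled TCR1640 (5.44 to 8.65) and 12.5% in males labelled SJL/J (9.65 to 15.9). Trav3 held 5.39% in females and 9.26% in males labelled TCR1640, groups that differ in sex, with n = 1 each. In the SJL/J labels it held 5.66% in females (3.76 to 8.13) and 8.64% in males (6.24 to 11.6), intervals that overlap. Trav15 held 0.968% in females labelled TCR1640 (0.390 to 1.98) and 4.32% in males labelled SJL/J (2.66 to 6.59), groups that differ in both label and sex. So do the groups in which Trav5 (5.75% and 1.68%) and Trav21 (2.14% and 0.210%) lay apart, males labelled TCR1640 and females labelled SJL/J. Trav8 stood at 6.22% and 5.26% against 3.14% and 3.46%, with intervals that overlap between labels in both sexes.

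**Figure D5:**
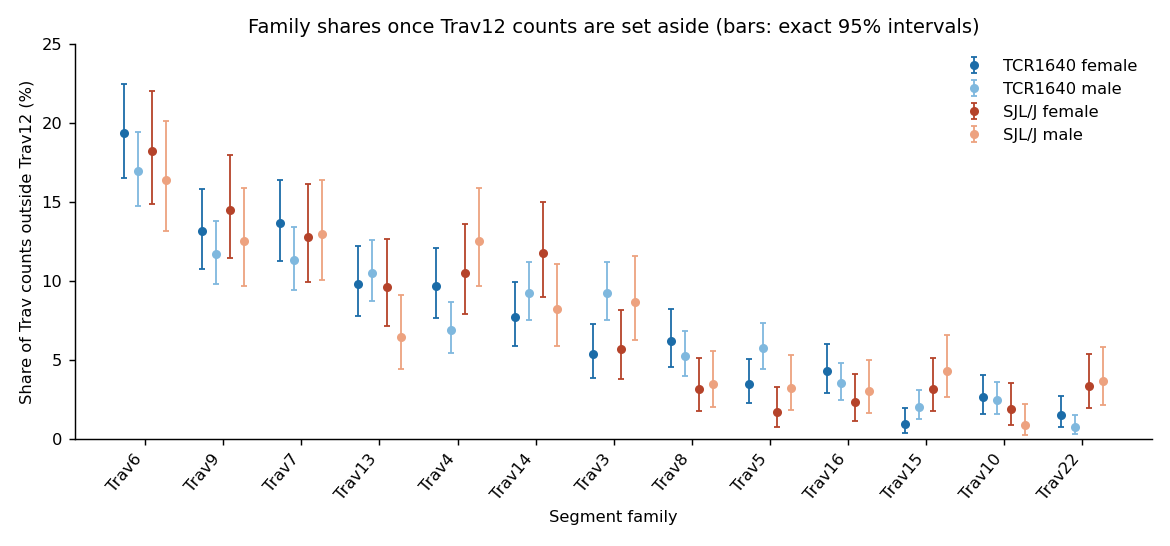
Share (%) of the Trav counts outside Trav12 for 13 families, by labelled group, with exact 95% intervals for counting error (n = 1 per group). Trav6 stands between 16.4% and 19.4% in all 4 groups. Trav22 stands at 1.52% in females and 0.780% in males of the TCR1640 labels and at 3.35% and 3.67% in the SJL/J labels. Its intervals overlap between labels in females (0.762 to 2.71 and 1.93 to 5.39).

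Diversity was lower where the Trav12 share was high. The effective number of segments is 1 over the sum of the squared shares, the number of equally used segments that would give the same evenness. It was 59.5 (54.8 to 65.1) and 61.0 (56.1 to 67.0) in females and males labelled TCR1640, and 21.6 (19.5 to 24.2) and 18.6 (16.5 to 21.2) in those labelled SJL/J. Single columns gave 55.3 and 54.98, 55.8 and 60.0, 22.3 and 20.5, and 18.6 and 17.8, so no column labelled SJL/J came near one labelled TCR1640. With d and n copies merged the values were 27.1, 29.5, 8.10 and 7.60, and the effective number of families was 9.97, 11.2, 3.25 and 3.13. The 10 most counted segments of each group held 29.8% and 27.8% of counts in TCR1640 labels and 56.0% and 57.5% in SJL/J labels.

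The number of segments with a count differed far less than their evenness. It was 110, 115, 101 and 103, and at a common depth of 769 counts the expected number was 110, 111, 94.5 and 97.4. Without Trav12 the effective number of segments was 54.1 (49.8 to 59.2), 55.7 (51.1 to 61.2), 45.7 (40.6 to 52.2) and 44.9 (39.4 to 52.1). This number tends to be lower on fewer counts, here 723, 1026, 477 and 463, and was not corrected for that without Trav12. At a common depth of 463 counts, the expected number of segments outside Trav12 was 92.3, 94.9, 91.3 and 94.0. The effective number of families outside Trav12 was 9.14, 10.3, 8.92 and 9.97. Without Trav12 the intervals of the effective number of segments overlapped between labels in both sexes.

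The Trav12 sums of the sexes differed by no more than counting error within a label. Trav12-3 alone was higher in males labelled SJL/J, at a log2 ratio of 0.64 (0.28 to 1.00) that is under 2-fold. Its copies went the other way, with 95 counts in females and 82 in males for Trav12d-3 and 86 and 67 for Trav12n-3. With the copies merged, the subgroup held 28.7% (26.0 to 31.6) and 30.7% (27.8 to 33.6) of Trav counts there, intervals that overlap. Between males and females, 4 of 32 segments passed the rule in the TCR1640 labels (12.5%, beside 3.11% of all features and 5.89% of those with 20 to 200 counts), 3 higher in males and 1 lower, beside 1.16% and 1.94% of all features. In the SJL/J labels 2 of 23 passed (8.70%, beside 2.6% and 4.89%), 1 higher and 1 lower, beside 1.1% and 1.5%. The median log2 ratio was 0.11 and -0.10 over the segments and 0.02 and 0.01 over all features. Trav3-3 (ENSMUSG00000094828, chr14:53665929-53666506) was the 1 segment that passed in both, higher in males. The share of all features that passed in both was not computed. Trav3-3 had 9 and 9 counts in females and 30 and 29 in males labelled TCR1640. Under the SJL/J label it had 5 and 6 in females and 15 and 9 in males. The log2 ratio was 1.37 (0.59 to 2.22) in the TCR1640 labels and 1.21 (0.13 to 2.39) in the SJL/J labels. Its share was the highest of any segment in males labelled TCR1640, at 5.41%.

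The remaining differences between groups of the 2 sexes rested on few counts. In the TCR1640 labels Trav21-dv12 had 1 and 3 counts in females and 10 and 12 in males (2.12, 0.56 to 4.12), and Trav5-4 had 4 and 2 against 13 and 11 (1.66, 0.33 to 3.24). Trav6-4 went the other way, with 11 and 11 counts in females and 1 and 6 in males (-1.99, -3.46 to -0.71). In the SJL/J labels Trav6-7-dv9 had 7 and 9 counts in females and 2 and 3 in males (-1.59, -3.39 to -0.07). The 2 columns of a group count as 1 sample, so their agreement adds no replicate check. With the first column of each group left out 2 segments passed in the TCR1640 labels and 0 in the SJL/J labels, and with the second left out 1 and 1. Between the 2 columns of a single group, the rule marked 0 of 9, 1 of 15, 0 of 12 and 0 of 13 segments, beside 0.809%, 0.945%, 0.886% and 0.863% of all features. The 1 was Trav9-1 in males labelled TCR1640, with 25 and 12 counts, so a difference of this size also occurred between columns of 1 group.

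Other receptor genes were measured beside the segments. Trac had 899, 1299, 1157 and 1359 counts, a log2 ratio between labels of -0.27 in females (-0.40 to -0.14) and -0.40 in males (-0.51 to -0.29). The beta constant regions and the CD3 subunits, which assemble with both chains, were slightly higher in the TCR1640 labels. Trbc1 stood at 0.44 and 0.27, Trbc2 at 0.58 and 0.48, Cd3d at 0.52 and 0.28, Cd3e at 0.55 and 0.83, Cd3g at 0.60 and 0.49 and Cd247 at 0.21 and 0.14. The delta constant region Trdc had 77, 76, 358 and 258 counts, with ratios of -2.12 (-2.50 to -1.76) and -2.10 (-2.48 to -1.72). The 10 segments named -dv had 61, 97, 59 and 61 counts, with ratios of 0.14 (-0.40 to 0.68) and 0.34 (-0.14 to 0.82), intervals that lie apart from those of Trdc. Dntt, which adds untemplated bases at the junctions, had 45, 69, 32 and 22 counts, and Rag1, Rag2 and Ptcra, genes of rearranging thymocytes, had 0 to 3 counts in any group.

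Cell types moved with the labels as well. The coreceptor genes Cd8a and Cd8b1 had 1214, 1699, 193 and 217 counts and 914, 1113, 169 and 185 counts, and Cd4 had 1244, 1692, 1961 and 1870. All 10 genes of the T cell list were counted in every column, with sums of 14624, 20044, 13498 and 13814. The 5 measured gamma-delta genes summed to 90, 100, 398 and 308 counts, the 5 B cell genes to 306, 410, 177 and 193, and the 4 NK genes to 36, 23, 22 and 22, with Ncr1 at 0 in females labelled TCR1640. The 6 myeloid genes summed to 1043, 1343, 1320 and 1665, and they did not move together. S100a8 had 0, 0, 65 and 171 counts, S100a9 5, 3, 209 and 528, and Lyz2 3, 2, 38 and 61. Csf1r, which gave most of the sum, had 1008, 1316, 997 and 894, with log2 ratios between labels of 0.11 (-0.02 to 0.24) and 0.23 (0.10 to 0.35). Itgam had 27, 22, 10 and 11, with ratios of 1.53 (0.44 to 2.74) and 0.67 (-0.44 to 1.86), and Adgre1 was at 0 in 3 groups. The joining segment Traj43 had 6, 5, 343 and 339 counts and moved with Trav12. The part of these cell types in the Trav12 difference was not tested.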

How the data were processed

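Messenger RNA of cultured immune cells was sequenced in 8 samples, 2 for each of 4 groups, each with its own count column, with groups and numbers taken from the sample titles. Whether the 2 columns of a group are separate libraries is not given in the sources used here. The authors deposited raw counts per Ensembl gene, whole numbers with no normalization, and a KAPA stranded kit was used on 500 ng of RNA, per the labels' protocols. The tools bcl2fastq 2.17, Bowtie2 and HTSeq and the build mm10 are named per the submitters' processing notes. Not given in the sources used here are the annotation release, the strand setting and how reads that match several segments were treated.

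Symbols, exons and sequences came from GENCODE M21 (GRCm38, which is mm10), where 147 of 52636 identifiers were absent. The table holds 0 summary rows and 0 unused columns. Columns were compared by chi-square over genes with at least 20 counts, without Gm43333, and the columns of a group were summed. Ratios used TMM factors of the 4 sums (edgeR 4.0.16, R 4.3.3), with exact conditional 95% intervals, and shares have exact Clopper-Pearson intervals. Intervals of effective numbers came from the delta method, and expected numbers of segments at a common depth from the hypergeometric distribution. A share of 0 is given the limit of 3 counts. All intervals and limits cover counting error only, and reads without molecular identifiers are not independent molecules. A segment was counted as differing at 2-fold or more, with an interval excluding equality and at least 20 counts over both groups. Uniqueness was measured over 50-base stretches of spliced Trav transcripts. The analysis used Python 3.11.15, pandas 2.3.3 and scipy 1.17.1, and the fits and ratios were tested on simulated data.

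Named families were the 8 with the highest mean share, with Trav11 and Trav1. Named segments were the Trav12 members, the 10 with the highest mean share, and the 5 largest differences in each direction of each comparison. Segments named beyond these, and families in the remainder outside Trav12, were chosen after their values were seen. Members, lists and tests were chosen with earlier results of these data known. Alternatives were other scalings, count minimums, a 1.5-fold rule, single columns, edgeR's quasi-likelihood test with and without the replicate number as a block, DESeq2 1.42.0, and subsets of segments.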

Additional observations from a re-analysis of the deposited data

Results flagged for a closer look

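A variable gene of the same locus whose symbol does not start with Trav, B230359F08Rik, lay outside the 128 segments. It had 7 counts in males labelled TCR1640 and 6 in females labelled SJL/J, above the limit of 3 counts that an observed 0 allows, and 2 counts in each of the other groups. No difference between the groups was detectable at this depth.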

How the results depend on the processing

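Under the alternatives run, the Trav12 share stayed higher and the effective number lower in the SJL/J labels, but the size of the latter difference did not hold. Without Trav12 the effective numbers were 54.1, 55.7, 45.7 and 44.9, in place of 59.5, 61.0, 21.6 and 18.6. Of 110 recomputed values, 68 stayed within the limits set for them. Counts of differing segments moved with the depth asked for. In the order females and males between labels, then TCR1640 and SJL/J labels between sexes, at least 50 counts gave 4, 5, 1 and 0 segments, and no minimum gave 6 for the last. Restricting to segments with mostly unique 50-base stretches gave 7 and 10 between labels and 1 in the SJL/J labels. With 1 column per group, which lowers the counts, the ranges were 6 to 7, 7 to 8, 1 to 2 and 0 to 1. Tests on the 8 columns compare these columns, not conditions. The edgeR quasi-likelihood test, in which 21 segments were tested, called 12 between labels in males and 2 and 1 between sexes. With the replicate number as a block (the pairing of columns 1 and 2) it again called 12, 2 and 1, and 11 in females with and without it. Of its segment calls between labels, 8 were lower and 3 higher in females and 8 lower and 4 higher in males. Over all 15793 genes tested, edgeR without the block called 5690 in females and 6755 in males between labels. Between sexes it called 2562 genes in the TCR1640 labels and 1782 in the SJL/J labels. DESeq2 called 7 of 31 tested segments in females and 7 of 53 in males between labels. Beside these, it called 3176 of 17440 and 4076 of 19291 genes, so in males the share of segments was below that of genes. It gave no segment an adjusted p between sexes. The Trav12 share in females labelled SJL/J was 58.7% over mostly unique segments. Over those segments the effective numbers were 24.3, 22.6, 6.83 and 6.09. Exponentials of the Shannon entropy, taken over all segments, were 76.0, 80.5, 40.5 and 38.5. With d and n copies merged, an alternative chosen after seeing the data, the effective numbers were 27.1, 29.5, 8.10 and 7.60. Males labelled TCR1640 ranged from 55.8 to 60.0 over single columns. The exponential of the Shannon entropy is another formula on the same counts, and merging d and n copies keeps every count under fewer names. Most of the other alternatives hold fewer counts or segments, and the cause of their shifts was not tested. With 769 to 1091 Trav counts per group, single segments below 20 counts allow no statement.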
